A study of Sus scrofa with 22 samples.

Results

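The genes described are 6 enzymes that make serine from a glycolytic intermediate or carry its one-carbon unit through mitochondrial folate: PHGDH, PSAT1, PSPH, SHMT2, MTHFD2 and ALDH1L2. They were chosen by name, with no threshold on a measured value, and were read wherever a RefSeq transcript record in the deposited tables could be matched to the symbol. Of these 6 genes, 3 had a matched record (PHGDH, PSPH and ALDH1L2), out of 14389 genes with one in the whole series. PSAT1, SHMT2 and MTHFD2 had none and are not analysed here, so the serine pathway is seen at its first and last steps and mitochondrial folate at ALDH1L2 alone. The names were put together with results on these same libraries known, and which of those values weighed in the choice is not recorded. The tests below, adjusted over all genes of a stage, therefore describe these genes and are not independent evidence about them.

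Serine synthesis branches from glycolysis: PHGDH oxidises 3-phosphoglycerate, PSAT1 transaminates the product, and PSPH removes the phosphate to release serine. In mitochondria SHMT2 passes a carbon from serine to tetrahydrofolate, MTHFD2 oxidises the folate further, and ALDH1L2 releases that carbon as carbon dioxide while making NADPH. MTHFD1 and ALDH1L1 are the cytosolic counterparts, and in mammalian cells several of these genes are known targets of ATF4, the transcription factor of the amino acid and endoplasmic reticulum stress responses.

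The series is RNA sequencing of pig body tissue from fetuses and of blastocysts grown in vitro to day 6, in 22 libraries. Day 30 and day 35 each had the same 3 fetal groups: abnormal clones (2 libraries), normal clones (3 libraries) and fetuses from natural fertilization, NF in the titles (2 libraries). The blastocyst groups had 2 libraries each, with XIST-KO (the title names a knockout of XIST, the RNA that begins silencing of an X chromosome), WT+Kdm4A (the title names Kdm4A, a histone H3 lysine 9 demethylase), WT and the fertilized IVF group. All libraries were labelled male except day 30 NF replicate 2, labelled female, and the IVF embryos, pooled from males and females. The titles XIST-KO, WT+Kdm4A and WT stand for cloned embryos as far as the design text tells, and neither XIST nor KDM4A has a matched record by which those titles could be checked. The labels do not give the donor cells, how the knockout was made, how Kdm4A was supplied, how abnormal was judged, or whether a library pools animals or embryos. Nor is it stated whether replicates come from different animals or cultures; p-values refer to the spread among these samples, which may be technical. Libraries were built from total RNA for fetuses and from cDNA for blastocysts, so the stages were fitted apart and levels set across them are descriptive.

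Total counts were 0.589 to 11.536 M per fetal library and 6.449 to 20.352 M per embryo library, and the fits tested 9911 and 6958 genes. The smallest library, day 35 abnormal replicate 2 at 0.589 M, stood apart from its partner. Its log2 CPM values had a Spearman correlation across genes of 0.789 with day 35 abnormal replicate 1, against 0.889 to 0.908 with the 4 NF libraries, while the other pairs of fetal libraries within a group reached 0.960 to 0.989. EIF1AY, a Y-linked gene looked at after its values were seen, had 0 counts in both day 35 abnormal libraries and in day 30 NF replicate 1, all labelled male. It had 20.5 to 52.9 CPM in every other fetal library, including the one labelled female. Whether labels or samples were exchanged was not tested. All values below follow the labels, and an exchange would change which group the day 35 abnormal and NF values belong to. The day 35 abnormal results are therefore given with both libraries and without each. In blastocysts the 4 XIST-KO and WT+Kdm4A libraries held 17.543 to 20.352 M counts and the 4 WT and IVF libraries 6.449 to 8.799 M. The 2 XIST-KO libraries correlated at 0.776. Replicate 1 reached 0.853 with WT replicate 2, and replicate 2 reached 0.819 with WT+Kdm4A replicate 2. The pairs within the other embryo groups were at 0.849 (IVF), 0.854 (WT) and 0.917 (WT+Kdm4A). EIF1AY had 1 and 0 counts in XIST-KO, 3 and 3 in WT, 19 and 8 in WT+Kdm4A and 14 and 0 in IVF embryos. Whether embryo labels or samples were exchanged was not tested either.

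PHGDH lies on chromosome 4 (101445977 to 101478144), PSPH on chromosome 3 (16877904 to 16903062) and ALDH1L2 on chromosome 5 (79492672 to 79558702) of Sscrofa11.1. PHGDH and ALDH1L2 were each read from 1 matched record, of 1904 and 3554 bases, and PSPH from 2, of 1416 and 1343 bases. ALDH1L2 matched only when the version of the record was ignored. Levels are given as TPM, which is scaled to transcript length and lets genes be compared, and as CPM, counts scaled to the size of each library within a stage, which belongs to the tests.

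In fetuses PHGDH, the entry enzyme, was the most abundant of the 3 in every library, and in blastocysts the order turned in some groups. PHGDH stood at the 88.2 to 98.3 percentile of TPM among detected genes in the 14 fetal libraries and at the 75.2 to 86.3 percentile in the 8 embryo libraries. PSPH stood at the 41.7 to 85.6 percentile in fetuses and at the 64.0 to 95.7 percentile in embryos. ALDH1L2 was the least abundant member in most libraries, at the 37.6 to 77.2 percentile in fetuses.

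By mean TPM, PHGDH was highest in day 35 abnormal fetuses (293), followed by day 30 abnormal (174), day 30 normal (150), day 35 NF (147), day 30 NF (110) and day 35 normal (86.0). In blastocysts its mean TPM was 62 in IVF, 49.7 in XIST-KO, 41.8 in WT and 31.4 in WT+Kdm4A. Most neighbours in that order overlapped: the only gaps between them lay below day 35 NF, below day 35 normal and below XIST-KO.

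PSPH had its highest mean TPM in XIST-KO (302) and WT+Kdm4A blastocysts (93.9), ahead of day 35 abnormal (51) and day 35 NF (43.1) fetuses, and each of these 4 groups lay wholly above the next. It then ran through day 30 NF (28.3), IVF (24.8), day 30 abnormal (21.7), day 30 normal (16.4) and WT (14.7), each overlapping the next of these, down to day 35 normal at 9.9 TPM. ALDH1L2 was highest in day 35 NF (31.3), day 35 abnormal (27.6) and day 30 NF (26.9), 3 groups that overlapped in that order. Day 30 normal (14.5), XIST-KO (10.9), day 35 normal (10.5) and day 30 abnormal (8.07) followed, overlapping in turn, and WT+Kdm4A (2.91), IVF (2.44) and WT blastocysts (0.015) were lowest.

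**Figure D1:**
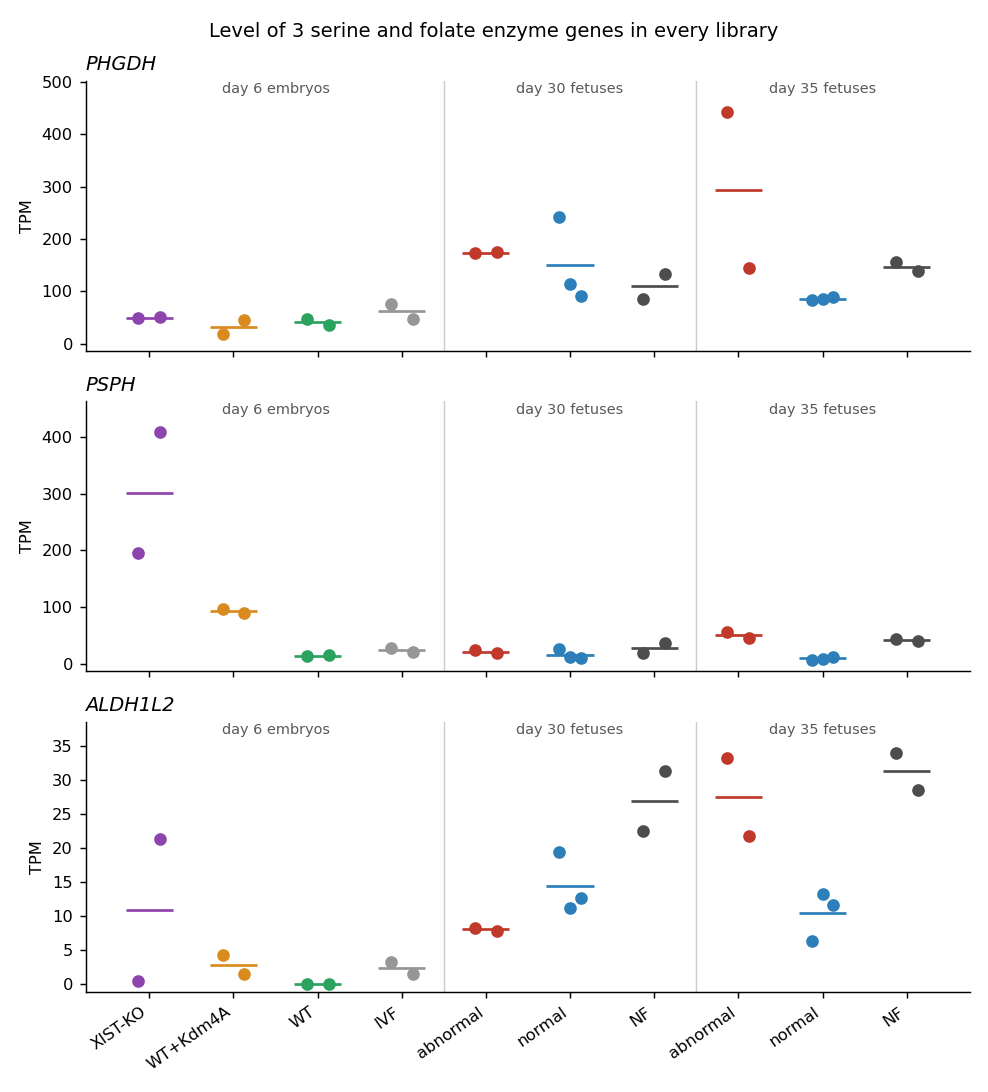
TPM of PHGDH, PSPH and ALDH1L2 in every library (points) with the group mean (bar), by group, with day 6 blastocysts left, then day 30 and day 35 fetuses. PSPH is highest in the XIST-KO blastocysts (195 and 408 TPM), while PHGDH is highest in 1 day 35 abnormal fetus library (443 TPM).

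At day 35 all 3 measured enzymes were higher in abnormal than in normal cloned fetuses. PHGDH had 951 and 267 CPM in the abnormal fetuses, against 146, 141 and 150 CPM in the normal ones. PSPH had 84 and 59.4 CPM in abnormal fetuses, against 9.92, 10.9 and 14.4 CPM in normal fetuses. ALDH1L2 had 143 and 80.9 CPM in abnormal fetuses, against 22.7, 43.6 and 38.8 CPM in normal fetuses. For each gene both abnormal libraries lay above all 3 normal ones, and replicate 1 was the higher of the pair. Of all genes tested, 17.1% had both abnormal libraries above all 3 normal ones. PSPH, the enzyme that releases serine, had the largest estimate of the 3, at 6.3-fold, or 2.66 ± 0.41 on the log2 scale (SE; adjusted p = 0.0016, edgeR quasi-likelihood test). PHGDH was 4.26-fold higher (log2 2.09 ± 0.46 SE, adjusted p = 0.00899) and ALDH1L2 3.32-fold higher (1.73 ± 0.32 SE, adjusted p = 0.00402), also by edgeR. All 3 measured members thus passed as higher, where 10.9% of the genes tested did and 23.2% passed in either direction.

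How far this held depended on the library. The fit without replicate 1 rests on replicate 2, which correlated more closely with the NF libraries (0.889 to 0.908) than with replicate 1 (0.789). PSPH in replicate 2, at 59.4 CPM, was near the 48.4 and 47.4 CPM of day 35 NF fetuses. Without replicate 1, PSPH was still higher by 2.33 on the log2 scale (adjusted p = 0.0163 by edgeR), while PHGDH (0.86, adjusted p = 0.193) and ALDH1L2 (1.19, adjusted p = 0.0817) no longer passed. Without the shallow replicate 2, all 3 passed, with log2 differences of 2.75 for PHGDH, 2.89 for PSPH and 2.07 for ALDH1L2. With the day 35 abnormal and normal libraries fitted alone, PSPH passed and PHGDH (2.08, adjusted p = 0.096) and ALDH1L2 (1.69, adjusted p = 0.0863) did not. In bulk tissue a change in the share of a cell type and a change in its RNA per cell cannot be told apart. The summed CPM of 6 measured neuron markers was 218 to 329 in day 35 abnormal fetuses and 2772 to 4667 in normal ones. That of 7 skeletal muscle markers was 8.82 to 89 in abnormal and 870 to 1293 in normal fetuses, with TNNT3 at 0 in both abnormal libraries. For 8 trophectoderm markers it was 267 to 5439 in abnormal fetuses, with CDX2 at 0, and 279 to 418 in normal fetuses. Endothelial markers summed to 70.1 to 233 CPM in abnormal and 660 to 752 CPM in normal fetuses. Macrophage markers summed to 23.3 to 49.4 CPM in abnormal and 112 to 177 CPM in normal fetuses, and fetal liver markers to 21.6 to 46 CPM in abnormal, with SERPINA1 and HNF4A at 0, and 167 to 238 CPM in normal fetuses. The sums for radial glia, erythroid cells and fibroblasts overlapped between these groups. The part of these cell types in the enzyme differences was not tested. A marker at 0 in abnormal replicate 2 may lie below the reach of its depth, where 3 counts amount to 8.09 CPM.

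At day 30 the same contrast gave no call for the members. PHGDH had 323 and 344 CPM in abnormal fetuses, against 370, 183 and 145 CPM in normal fetuses. PSPH had 32.3 and 25.2 CPM in abnormal fetuses, against 29.2, 13.2 and 11.07 CPM in normal fetuses. Day 30 normal replicate 1 reached the level of the abnormal pair for both genes, so the groups overlapped. ALDH1L2 ran the other way without overlap, as 33.3% of tested genes did, at 31 and 30.8 CPM in abnormal fetuses and 59.1, 35.8 and 40.2 CPM in normal ones. The log2 differences were 0.52 ± 0.46 for PHGDH, 0.70 ± 0.40 for PSPH and -0.54 ± 0.33 for ALDH1L2 (SE). By edgeR 0 of the 3 members passed (adjusted p = 0.472, 0.259 and 0.3), where 15.4% of tested genes did. None had an unadjusted p under 0.05 by edgeR, where 3103 of 9911 genes did. DESeq2 called 0 members and 2080 genes. On log2(TPM + 1) limma called 0 members and 1954 genes, with 1 member and 3511 genes at an unadjusted p under 0.05. Without normal replicate 1 PSPH was higher by 1.24 (adjusted p = 0.047 by edgeR), so that library decided the call. Neuron markers summed to 522 to 582 CPM in day 30 abnormal and 1962 to 2502 CPM in normal fetuses. Trophectoderm markers summed to 2013 to 2583 CPM in abnormal and 219 to 282 CPM in normal fetuses at this day. In the same order, skeletal muscle markers summed to 35 to 83 and 346 to 579.5 CPM. Endothelium had 871 to 1221 and 577 to 618 CPM, and macrophages 115 to 198 and 32.7 to 42.1 CPM. Hypoblast had 265 to 329 and 48 to 52.3 CPM, and inner cell mass 134 to 197.5 and 66.8 to 71.4 CPM. The other fetal sums overlapped. The part of these cell types in the enzyme values was not tested.

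The difference between the days was itself tested. ALDH1L2 was the only member that passed, its abnormal-to-normal difference changing by 2.27 ± 0.47 on the log2 scale (SE; adjusted p = 0.0281, edgeR). It was below normal at day 30 and above it at day 35. For PSPH the day 35 difference exceeded that of day 30 by 1.95 ± 0.58 (adjusted p = 0.0827) and for PHGDH by 1.57 ± 0.66 (adjusted p = 0.189), neither of which passed. That is 1 of 3 members, where 1.31% of genes had a higher day 35 effect and 4.05% passed in all. All 3 members had an unadjusted p under 0.05 by edgeR, as did 2180 of 9911 genes, and the members were not compared with each other. The ALDH1L2 call was lost, at adjusted p of up to 0.101, when any 1 of day 30 abnormal replicate 1 or 2, day 30 normal replicate 1 or 3 or day 35 normal replicate 3 was left out, with the difference between 1.73 and 2.61 over all such fits. Without day 35 abnormal replicate 2, PHGDH (2.23, adjusted p = 0.0196) and PSPH (2.18, adjusted p = 0.0461) passed as well. Averaged over the days, PSPH was 1.68 ± 0.28 higher in abnormal fetuses (SE; adjusted p = 0.00154) and PHGDH 1.30 ± 0.32 higher (adjusted p = 0.0112), while ALDH1L2 stood at 0.60 ± 0.23 (adjusted p = 0.0697). These were 2 of 3 members higher, where 15.2% of genes passed as higher and 31.0% in all. PHGDH lost that call without day 35 abnormal replicate 1 (0.69, adjusted p = 0.0877), and ALDH1L2 passed without day 35 abnormal replicate 2 (0.76, adjusted p = 0.0208) or without day 30 normal replicate 1 (0.71, adjusted p = 0.0439).

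**Figure D2:**
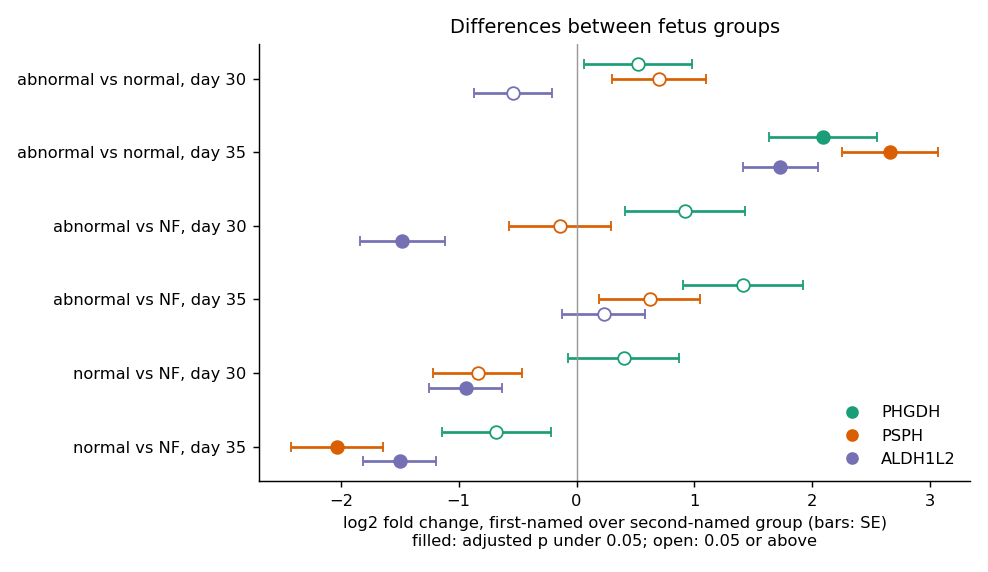
Log2 fold change with its SE for PHGDH, PSPH and ALDH1L2 in 6 fetal comparisons, with filled points for adjusted p under 0.05 (edgeR). All 3 points are filled for abnormal against normal at day 35 (2.09, 2.66 and 1.73), and PSPH and ALDH1L2 lie below 0 for normal against NF at day 35 (-2.03 and -1.50).

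The normal clones were then set against naturally fertilized fetuses, a contrast that shares the normal libraries with the one above. At day 35 PSPH had 9.92, 10.9 and 14.4 CPM in normal clones, against 48.4 and 47.4 CPM in NF fetuses. ALDH1L2 had 22.7, 43.6 and 38.8 CPM in normal clones, against 105 and 92.6 CPM in NF fetuses. PHGDH had 146, 141 and 150 CPM in normal clones, against 241 and 226 CPM in NF fetuses. In all 3 genes every normal clone lay below both NF libraries, as did 35.1% of all genes tested. PSPH was lower by -2.03 ± 0.39 on the log2 scale (SE; adjusted p = 0.00209, edgeR) and ALDH1L2 by -1.50 ± 0.31 (adjusted p = 0.00315), while PHGDH, at -0.68 ± 0.46, did not pass (adjusted p = 0.248). So 2 of 3 members were lower, where 20.1% of genes were lower and 42.3% passed in all, and both calls held without each library in turn. Summed markers of several cell types did not overlap between these groups either. Summed CPM in normal clones and in NF fetuses was 2772 to 4667 and 451 to 461 for neurons, 870 to 1293 and 291 to 313 for skeletal muscle, and 167 to 238 and 25.5 to 28.1 for fetal liver, with AFP, AHSG and SERPINA1 at 0 in NF fetuses and TTR at 0 in normal clones. It was 1431 to 2841 in normal clones and 175 to 187 in NF fetuses for erythroid cells, and 10470 to 11370 in normal clones and 5417 to 5910 in NF fetuses for radial glia. Fibroblast markers were lower in normal clones, at 14170 to 24670 against 29710 to 33140 CPM in NF fetuses. Macrophage markers summed to 112 to 177 CPM in normal clones and 60.7 to 73.7 CPM in NF fetuses. The part of these cell types in the PSPH and ALDH1L2 differences was not tested.

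At day 30 ALDH1L2 was again lower in normal clones (59.1, 35.8 and 40.2 CPM, against 74.1 and 98.5 CPM in NF), by -0.94 ± 0.31 (SE; adjusted p = 0.0398, edgeR). It was the 1 of 3 members that passed, where 15.3% of genes were lower and 29.3% passed in all, and the call was lost on leaving out normal replicate 2 or 3 or either NF library. PSPH had 29.2, 13.2 and 11.07 CPM in normal clones, against 23.2 and 40.1 CPM in NF fetuses, a log2 difference of -0.84 ± 0.38 (adjusted p = 0.122). Without normal replicate 1 it was -1.37 and passed (adjusted p = 0.0167 by edgeR). PHGDH had 370, 183 and 145 CPM in normal clones, against 143 and 210 CPM in NF fetuses, and overlapped (0.40, adjusted p = 0.555). At this day fibroblast markers summed to 10820 to 13430 CPM in normal clones and 38290 to 41210 CPM in NF fetuses, neuron markers to 1962 to 2502 CPM in normal clones and 511 to 857 CPM in NF fetuses, and erythroid markers to 1288 to 2902 CPM in normal clones and 59 to 227 CPM in NF fetuses. Their part in the ALDH1L2 difference was not tested.

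Abnormal clones and NF fetuses, the remaining pair, have their libraries in common with both contrasts above. At day 35 PSPH had 84 and 59.4 CPM in abnormal clones, against 48.4 and 47.4 CPM in NF fetuses. PHGDH had 951 and 267 CPM in abnormal clones, against 241 and 226 CPM in NF fetuses. ALDH1L2 had 143 and 80.9 CPM in abnormal clones, against 105 and 92.6 CPM in NF fetuses. The abnormal libraries lay above NF for PSPH and PHGDH and on both sides of it for ALDH1L2. Of all genes tested, 18.0% had both abnormal libraries above both NF ones. The log2 differences were 0.62 ± 0.43 for PSPH, 0.23 ± 0.35 for ALDH1L2 and 1.41 ± 0.51 for PHGDH (SE). By edgeR 0 of 3 members passed (adjusted p = 0.31, 0.66 and 0.0676), where 23.2% of genes did. PHGDH alone had an unadjusted p under 0.05, and it was the 1 member that DESeq2 called (log2 1.49, adjusted p = 0.0237), whereas limma on log2(TPM + 1) called 0. DESeq2 called 2909 of 9911 genes in this comparison, edgeR 2301 and limma 2474, and 3851 had an unadjusted p under 0.05 by edgeR. PHGDH passed in edgeR without abnormal replicate 2 (2.02, adjusted p = 0.00243). Without replicate 1 its difference was 0.13.

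At day 30, ALDH1L2 was lower in abnormal clones (31 and 30.8 CPM) than in NF fetuses (74.1 and 98.5 CPM), by -1.48 ± 0.36 (SE; adjusted p = 0.013, edgeR). That is 1 of 3 members, where 14.5% of genes were lower and 30.0% passed in all, and the call was lost without either abnormal library or without NF replicate 2 (adjusted p up to 0.0815). Summed CPM in the same groups was 12330 to 13930 in abnormal and 38290 to 41210 in NF fetuses for fibroblast markers, 2013 to 2583 in abnormal and 147 to 164 in NF fetuses for trophectoderm markers, with CDX2 at 0 in NF, and 35 to 83 in abnormal and 267 to 366 in NF fetuses for skeletal muscle markers. The part of these cell types in the ALDH1L2 difference was not tested. PHGDH (0.92 ± 0.51, adjusted p = 0.19) and PSPH (-0.14 ± 0.43, adjusted p = 0.829) did not pass. The TPM ratio of PSPH to PHGDH sets the last step of serine synthesis against the first. It was 0.142 and 0.107 in day 30 abnormal and 0.127 and 0.319 in day 35 abnormal libraries, 0.0961 to 0.136 in the 6 normal libraries and 0.229 to 0.298 in the 4 NF libraries. The value of 0.319 belongs to day 35 abnormal replicate 2, the library that stood apart.

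**Figure D3:**
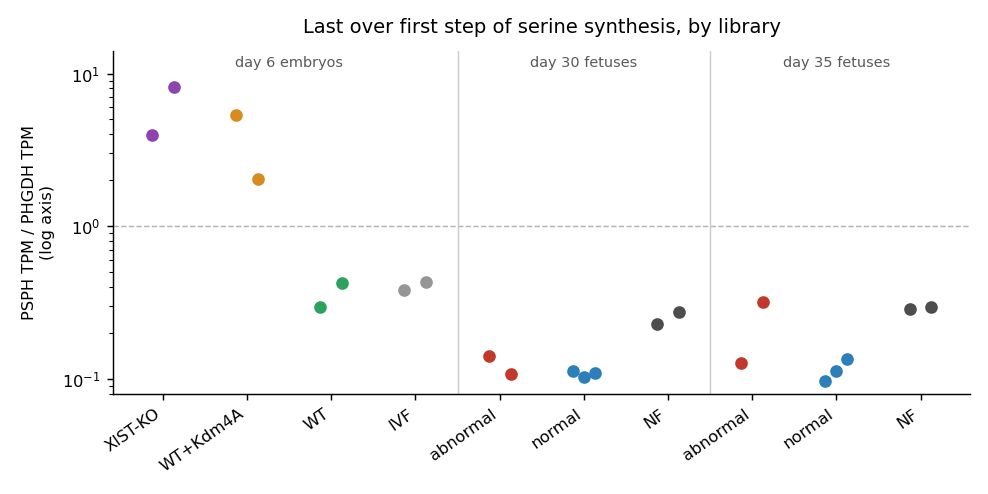
TPM of PSPH divided by TPM of PHGDH in each library, on a log axis, by group. Normal fetuses lie at 0.0961 to 0.136 and NF fetuses at 0.229 to 0.298, the XIST-KO and WT+Kdm4A blastocysts lie above 1, and the WT and IVF blastocysts below it.

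Between the days within a group, ALDH1L2 in abnormal clones was the single member called. It had 143 and 80.9 CPM at day 35, against 31 and 30.8 CPM at day 30, a log2 difference of 1.91 ± 0.37 (SE; adjusted p = 0.0208, edgeR). PSPH (1.36 ± 0.45, adjusted p = 0.119) and PHGDH (0.89 ± 0.51, adjusted p = 0.346) did not pass, so 1 of 3 members was higher, where 1.63% of genes were higher and 3.51% passed in all. The ALDH1L2 call was lost without either day 30 abnormal library or without day 35 replicate 1 (1.31, adjusted p = 0.0761). In abnormal fetuses, fibroblast markers summed to 16370 to 25010 CPM at day 35 and 12330 to 13930 CPM at day 30. The other sums without overlap were lower at day 35. They were, at day 35 and day 30, 218 to 329 and 522 to 582 CPM for neurons and 70.1 to 233 and 871 to 1221 CPM for endothelium. For macrophages they were 23.3 to 49.4 and 115 to 198 CPM, for fetal liver 21.6 to 46 and 49.6 to 1721 CPM, and for hypoblast markers 27 to 102 and 265 to 329 CPM. The part of these cell types in the ALDH1L2 difference between the days was not tested. PHGDH stood at 1.5 (adjusted p = 0.0435) without day 35 replicate 2 and at -0.40 without replicate 1. In normal clones PHGDH (-0.68 ± 0.41), PSPH (-0.60 ± 0.36) and ALDH1L2 (-0.36 ± 0.28) did not pass by edgeR, DESeq2 or limma, with 0 unadjusted p-values under 0.05. In that comparison edgeR called 9.19% of genes, DESeq2 1588 of 9911 and limma 698, and 2618 had an unadjusted p under 0.05 by edgeR. In NF fetuses the differences were 0.40 ± 0.50, 0.60 ± 0.42 and 0.20 ± 0.34 for the same genes (SE), and 0 passed by edgeR, DESeq2 or limma. There edgeR called 0 of 9911 genes (0.0%), with 351 at an unadjusted p under 0.05, DESeq2 called 11 and limma 1.

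The cytosolic counterparts were not called between abnormal and normal clones at either day. MTHFD1, the cytosolic enzyme with several folate activities, had 67.1 and 264 CPM in day 35 abnormal fetuses, against 136, 122 and 133 CPM in normal fetuses. The abnormal libraries lay on both sides of the normal ones (log2 0.24 ± 0.40, adjusted p = 0.71 by edgeR). In replicate 1, which had the highest PHGDH of the series, MTHFD1 was at its fetal lowest. At day 30 MTHFD1 had 113 and 118 CPM in abnormal fetuses, below the 169 to 184 CPM of normal ones, without passing (-0.61 ± 0.38, adjusted p = 0.306). ALDH1L1, the cytosolic relative of ALDH1L2, was low, at 4.37 and 9.41 CPM in day 30 abnormal fetuses, 1.45 to 2.21 CPM in normal and 0.55 and 1.07 CPM in NF fetuses. It was higher in abnormal than in NF fetuses at day 30 (log2 3.06 ± 0.81, adjusted p = 0.0184 by edgeR) and not against normal ones (1.89 ± 0.68, adjusted p = 0.0829). SHMT1, MTHFD2L and MTHFD1L had no matched record.

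Among related genes, the ATF4 response and the tRNA synthetases had most of their tested members called at day 35, higher in abnormal than in normal clones and lower in normal clones than in NF fetuses. These lists were compiled with earlier results of these data known, and their counts carry no test. Over all genes tested, 10.9% passed as higher in abnormal than in normal clones at day 35, and 23.2% in either direction. Of 14 tested genes of the ATF4 list, 12 were higher and 0 lower in abnormal than in normal fetuses at day 35, with a median log2 change of 2.46, beside 0.00 over all genes tested. ATF4 itself was higher by 1.14 ± 0.24 (SE; adjusted p = 0.00719, edgeR). TRIB3, a pseudokinase that is an ATF4 target, had 24.3 to 34.5 CPM in abnormal and 0.592 to 0.913 CPM in normal fetuses (log2 5.37), and ASNS, asparagine synthetase, had 124 to 303 CPM in abnormal and 0 to 17 CPM in normal fetuses (5.27). STC2, a secreted glycoprotein, had 48.6 to 168 CPM in abnormal and 2.76 to 4.57 CPM in normal fetuses (4.85). Of 10 tRNA synthetase genes tested, 7 were higher and 0 lower (median 1.30), among them GARS for glycine (log2 2.32), WARS for tryptophan (1.96) and SARS for serine (1.73).

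Transport and use of serine was mixed, with 5 of 11 tested genes higher and 1 lower (median 1.05), where 10.9% of all genes were higher. SLC1A5, a neutral amino acid transporter, had 537 to 711 CPM in abnormal and 132 to 177 CPM in normal fetuses (log2 2.05), and CTH, which makes cysteine and is also on the ATF4 list, had 39.9 to 108 CPM in abnormal and 9.82 to 10.1 CPM in normal fetuses (2.78). SLC7A10, a neuronal and glial transporter of small amino acids, was the lower gene, with 0 counts in both abnormal libraries and 1.37 to 6.56 CPM in normal ones. In abnormal replicate 2, 3 counts amount to 8.09 CPM, above every normal value, so its 0 cannot show a lower level. Of 7 genes of lower glycolysis, whose steps lie on both sides of the PHGDH substrate, 5 were higher (median 1.92), with LDHA at 637 to 4790 CPM in abnormal and 276 to 423 CPM in normal fetuses (log2 2.96), PGK1 at 2.49 and PKM at 2.15. Purine synthesis had 3 of 8 genes higher (GMPS 1.28, ATIC 0.65 and IMPDH2 0.48; median 0.35) and the methionine cycle 1 of 7 (MAT2A 1.01; median 0.07). Of the cytosolic folate enzymes 1 of 5 was higher (TYMS, thymidylate synthase, 0.85; median 0.24), and of the mitochondrial folate partners 0 of 6 changed by edgeR (median 0.19). Folate uptake and retention had GGH higher (0.72) and FOLR1 lower (-1.64) of 4 tested (median -0.43). On log2(TPM + 1), where the median over all genes was -0.32, the medians of the mitochondrial folate partners (-0.14), cytosolic folate enzymes (-0.25) and methionine cycle (-0.14) turned sign. On that scale limma called 9 ATF4 list genes higher and 0 lower (median 2.06), 3 higher and 1 lower for serine transport and use (0.39) and 1 in each direction for purine synthesis (0.14).

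Both the lists and the members varied between the 2 day 35 abnormal libraries. Without replicate 1, the median of the 14 ATF4 list genes was 1.57, beside -0.37 over all genes, and that of the 10 tRNA synthetases was positive. Without replicate 2 the ATF4 list median was 2.12, and that of the tRNA synthetases was again positive. Of 9 cell cycle genes, 0 passed by edgeR with both libraries (median -0.09). Their median was positive without replicate 1 and -2.68 without replicate 2. The median over all genes without replicate 2 is not reported here. With the compared groups alone, 5 of 14 ATF4 list genes and 5 of 10 tRNA synthetases were higher. The number of all genes called in that fit is not reported here.

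At day 30 the ATF4 list had 7 of 14 genes higher and 0 lower in abnormal clones (median 1.28), including ATF3, a stress-induced partner of ATF4, at 240 to 360 CPM in abnormal and 7.93 to 9.41 CPM in normal fetuses (log2 5.15). TRIB3 (3.58) and STC2 (2.80) followed, whereas ATF4 itself stood at 0.48 ± 0.24 (SE; adjusted p = 0.198, edgeR). Lower glycolysis had 6 of 7 higher (median 2.05; LDHA 2.81, ENO2 2.64, PGK1 2.55), the tRNA synthetases 2 of 10 (DARS at 326 to 359 CPM in abnormal and 160 to 165 CPM in normal fetuses, and GARS at log2 0.88), serine transport and use 2 of 11, with SLC1A5 at 0.96, and folate uptake 2 of 4 (FOLR1 2.65, GGH 0.69). TYMS (0.86), MAT2A (1.2) and IMPDH2 (0.47) were the called genes of their lists, and 0 of 6 mitochondrial folate partners passed by edgeR. Over all genes tested, 15.4% passed by edgeR at this day, in either direction. On log2(TPM + 1) the ATF4 list had 4 genes higher (median 0.95) and the tRNA synthetases 1 (median -0.09, against 0.18 on counts).

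Normal clones were also set against NF fetuses over the same lists. Over all genes tested, 20.1% were lower and 42.3% passed in all at day 35, and 15.3% and 29.3% at day 30. At day 35, 9 of 14 ATF4 list genes were lower and 0 higher (median -1.67, beside 0.06 over all genes), and 9 of 10 tRNA synthetases were lower and 0 higher (-1.67). ATF4 was lower by -1.66 ± 0.24 (SE; adjusted p = 0.000472, edgeR). Serine transport and use had 4 of 11 lower, purine synthesis 4 of 8 lower, and the mitochondrial folate partners 1 higher and 1 lower of 6. Lower glycolysis had 1 of 7 higher and 0 lower (median 0.20), folate uptake 1 of 4 higher and 0 lower (0.64), cytosolic folate 1 of 5 higher and 0 lower (0.21), and the methionine cycle 1 higher and 3 lower of 7 (-0.15). At day 30, 7 of 14 ATF4 list genes (median -1.17) and 8 of 10 tRNA synthetases (median -1.28) were lower and 0 higher in either list, with 5 of the ATF4 list lower on log2(TPM + 1) (median -0.65).

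**Figure D4:**
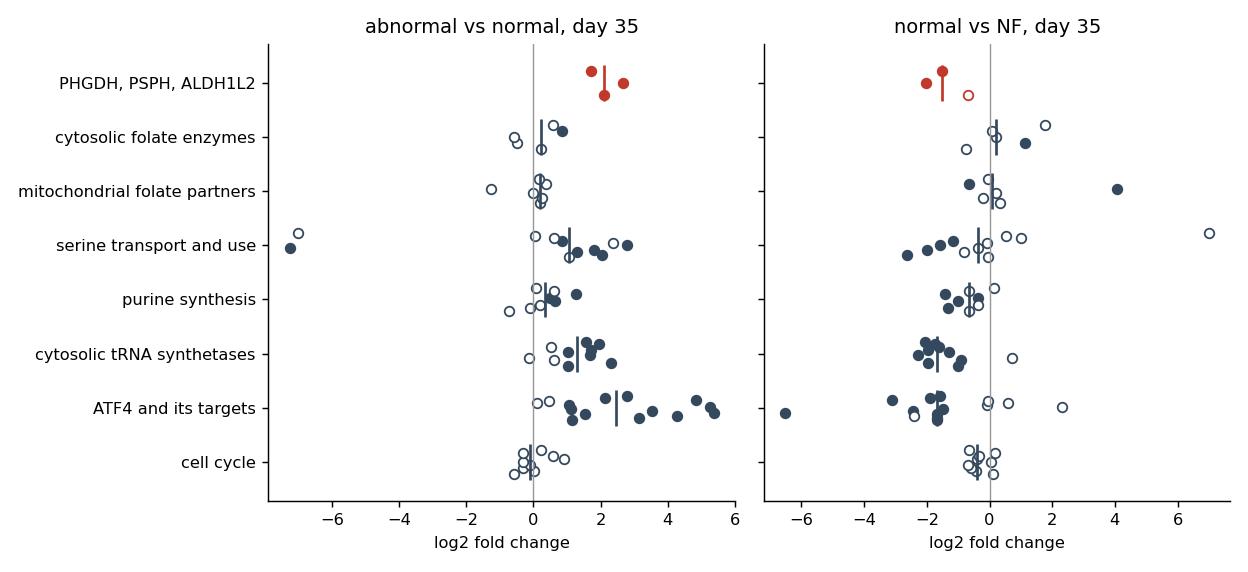
Log2 fold change of each tested gene in the members and 7 related lists (points), with the list median as a line, for abnormal against normal and normal against NF at day 35. The medians of the ATF4 list are 2.46 and -1.67 in these comparisons, and those of the mitochondrial folate partners are 0.19 (turning to -0.14 on log2(TPM + 1)) and 0.07.

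The genes nearest to the members in profile were found over the 14 fetal libraries, by the root mean square difference of log2 CPM centred on each gene's mean. A value of 0 would be an identical profile. The nearest to PSPH among 9910 genes was GARS, glycyl-tRNA synthetase, at 0.30, with ACKR3, a scavenging chemokine receptor, at 0.39 and SLC16A1, a lactate transporter, at 0.40. The median over all genes was 1.17 and PSPH's own spread 0.95. The nearest to ALDH1L2 were KCTD9 (0.34), WARS (0.37) and FICD, an endoplasmic reticulum enzyme that modifies the chaperone BiP (0.37), beside a median of 1.02 and an own spread of 0.77. PHGDH was nearest to HTATIP2 (0.32), PAPOLB (0.36) and HSPB11 (0.38), beside a median of 1.01 and an own spread of 0.74.

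The members were not each other's nearest neighbours. ALDH1L2 ranked 43 (0.56) and PHGDH 103 (0.63) by closeness to PSPH. PSPH ranked 233 and PHGDH 2549 by closeness to ALDH1L2, and PSPH ranked 441 and ALDH1L2 2167 by closeness to PHGDH. These libraries share groups and differ in depth, so closeness is a description of these 14 profiles only.

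**Figure D5:**
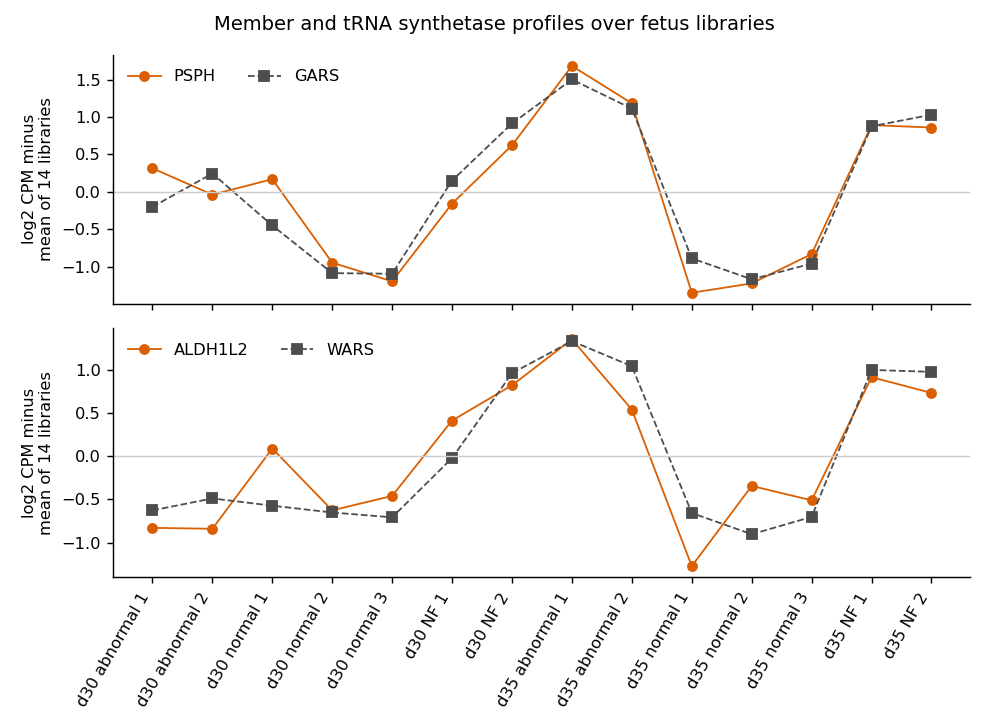
Centred log2 CPM of PSPH with GARS and of ALDH1L2 with WARS in the 14 fetal libraries, in order of group. The lines of each pair run close together, with root mean square differences of 0.30 and 0.37, and all 4 genes peak in day 35 abnormal replicate 1 (143 CPM for ALDH1L2, 84 CPM for PSPH).

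In day 6 blastocysts, PSPH was the member called between groups of clones, and PHGDH did not pass. PSPH had 394 and 465 CPM in XIST-KO embryos, against 22.2 and 29.6 CPM in WT embryos. In WT+Kdm4A embryos it had 158 and 183 CPM, against the same WT libraries. Neither comparison showed overlap, nor did 21.0% of all genes in XIST-KO and 38.9% in WT+Kdm4A in the same direction. The XIST-KO difference was 16.6-fold (log2 4.05 ± 0.65 SE, adjusted p = 0.0277 by edgeR), and PSPH was 1 of 3 members passing, where 0.417% of genes were higher and 1.11% passed in all. The WT+Kdm4A difference was 6.58-fold (log2 2.72 ± 0.61 SE, adjusted p = 0.0244), again 1 of 3 members, where 2.95% of genes were higher and 7.43% passed in all.

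These PSPH calls were made on pairs of libraries. The XIST-KO call was lost without WT replicate 1 (3.91, adjusted p = 0.148), WT replicate 2 (4.35, adjusted p = 0.186) or XIST-KO replicate 2 (3.90, adjusted p = 0.0743), and the WT+Kdm4A call without WT replicate 1 (2.60, adjusted p = 0.142) or WT replicate 2 (2.88, adjusted p = 0.139). The median log2 change over all genes was 0.15 for XIST-KO and 0.35 for WT+Kdm4A, so a small general shift stands beside these values. Both groups with high PSPH also held the deeper libraries, and the part of depth was not tested.

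PHGDH had 146 and 79.8 CPM in XIST-KO, 43.5 and 133 CPM in WT+Kdm4A, 110 and 101 CPM in WT and 140 and 64.9 CPM in IVF embryos. All these ranges overlapped, and the edgeR differences from WT were 0.10 ± 0.72 for XIST-KO (SE; adjusted p = 0.986) and -0.25 ± 0.72 for WT+Kdm4A (adjusted p = 0.839). On the TPM scale PSPH exceeded PHGDH 3.96-fold and 8.13-fold in XIST-KO and 5.33-fold and 2.03-fold in WT+Kdm4A embryos. The same ratio was 0.294 and 0.424 in WT and 0.38 and 0.433 in IVF embryos, so the last step of serine synthesis outweighed the first in RNA in the XIST-KO and WT+Kdm4A groups and not in WT or IVF. In the counts of PSPH, 81.5% to 94.9% lay on the curated record in the cloned embryos, against 34.5% and 50.8% in IVF embryos, as RSEM divided reads between the 2 records.

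ALDH1L2 was close to absent in WT embryos, with 0 and 0.17 CPM. It had 2.81 and 65.8 CPM in XIST-KO, 21.1 and 9.42 CPM in WT+Kdm4A and 12.4 and 4.17 CPM in IVF embryos. Every library of those groups lay above WT, and XIST-KO spread most. Of all genes tested, 21.0% lay wholly above WT in XIST-KO and 38.9% in WT+Kdm4A, and 31.9% were wholly lower in WT than in IVF. Summed over each group's libraries the ALDH1L2 counts were 1087 in XIST-KO, 469 in WT+Kdm4A, 115 in IVF and 1 in WT. Per scaled count, the ratio to WT was 462 for XIST-KO (95% exact interval 82.8 to 18270) and 192 for WT+Kdm4A (34.4 to 7615), and the ratio of WT to IVF was 0.0107 (0.000268 to 0.0607). These intervals cover counting error only. With the spread between libraries, edgeR gave adjusted p = 0.0726 for XIST-KO, 0.0518 for WT+Kdm4A and 0.0827 for WT against IVF, so ALDH1L2 passed in none of these. DESeq2 called it in all 3, but it called 932, 1554 and 1464 of 6958 genes there, against 77, 517 and 397 by edgeR. Without XIST-KO replicate 1 the XIST-KO difference from WT passed in edgeR (adjusted p = 0.00975), and without WT+Kdm4A replicate 2 so did that of WT+Kdm4A (adjusted p = 0.0127).

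No difference between WT clones and IVF embryos passed in PSPH (22.2 and 29.6 CPM in WT, 35.6 and 19 CPM in IVF; log2 -0.08 ± 0.57 SE, adjusted p = 0.957, edgeR) or PHGDH (0.04 ± 0.72, adjusted p = 0.992), and their libraries overlapped. By edgeR 0 of 3 members passed, where 5.71% of genes did, with 1 unadjusted p under 0.05 (ALDH1L2), 1 call by DESeq2 and 0 by limma. Over all 6958 genes, 1930 had an unadjusted p under 0.05 by edgeR, and DESeq2 called 1464 and limma 939. Against IVF, PSPH stood at 3.97 ± 0.64 in XIST-KO (adjusted p = 0.0926) and at 2.64 ± 0.61 in WT+Kdm4A (adjusted p = 0.165), PHGDH at 0.14 ± 0.72 and -0.22 ± 0.72, and ALDH1L2 at 2.05 ± 1.48 and 0.88 ± 1.44 (SE). These were 0 of 3 members in each by edgeR, where 0.0431% of genes passed in either. PSPH had an unadjusted p under 0.05 in both comparisons and was called by DESeq2 in both, and by limma on log2(TPM + 1) for XIST-KO. Of 6958 genes, DESeq2 called 426 for XIST-KO and 253 for WT+Kdm4A, edgeR 3 in each, and limma 26 for XIST-KO. An unadjusted p under 0.05 by edgeR was held by 1139 genes for XIST-KO and 858 for WT+Kdm4A. Without XIST-KO replicate 2, PSPH passed against IVF in edgeR (3.84, adjusted p = 0.0263) and ALDH1L2 stood at -1.57. ALDH1L1 had 208 counts over the WT+Kdm4A libraries and 0 in XIST-KO, WT and IVF embryos, at least 28.4-fold higher than WT and 35-fold higher than IVF taking 3 counts over the group as the floor. That bound covers counting only. By edgeR neither difference passed (adjusted p = 0.113 against WT and 0.337 against IVF). MTHFD1 had 1247 and 958 CPM in WT+Kdm4A, 475 and 898 CPM in XIST-KO, 530 and 182 CPM in WT and 623 and 671 CPM in IVF embryos, and passed in no embryo comparison.

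Most related genes did not pass in blastocysts. Over all genes tested, 5.71% passed in WT against IVF, 1.11% in XIST-KO against WT and 7.43% in WT+Kdm4A against WT. Of 6 tested genes of serine transport and use, 2 were lower in WT than in IVF embryos: CTH, at 2.25 to 4.35 CPM in WT and 135 to 255 CPM in IVF (log2 -5.88), and SDS, serine dehydratase, at 0 to 0.805 CPM in WT and 46.5 to 56.4 CPM in IVF (-6.94). PGK1 was lower too (-4.39), while VARS (7.30) and GARS (2.59) were higher in WT. CTH was higher than WT in XIST-KO (4.86 ± 1.04 SE, adjusted p = 0.04995, edgeR) and in WT+Kdm4A (6.12 ± 1.09, adjusted p = 0.0119), and PGK1 in XIST-KO (4.08) and WT+Kdm4A (3.71). The CTH call in XIST-KO was lost with RLE factors (4.81, adjusted p = 0.0573, edgeR), without either WT library or XIST-KO replicate 2 (2.9 to 5.53, adjusted p = 0.164 to 0.253), with the compared groups alone (5.02, adjusted p = 0.107), with records matched by version (4.88, adjusted p = 0.0609) and on log2(TPM + 1) in limma (3.82, adjusted p = 0.124). The call in WT+Kdm4A was lost without WT replicate 1 (5.77, adjusted p = 0.0791) or WT replicate 2 (6.62, adjusted p = 0.0841), and in limma with no filter on low values (5.08, adjusted p = 0.0727). In WT+Kdm4A against WT, purine synthesis had 3 of 8 genes higher (median 1.47, beside 0.35 over all genes) and the methionine cycle 2 of 7 (median 0.30), where 2.95% of all genes were higher. Of the ATF4 list, 1 of 12 genes was higher in XIST-KO and 2 of 12 in WT+Kdm4A than in WT, CTH among them, and GARS, the nearest neighbour of PSPH in fetuses, stood at -0.15 ± 0.64 (adjusted p = 0.953) and -1.16 ± 0.65 (adjusted p = 0.246).

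Lineage markers of the blastocyst were summed for the same groups. Inner cell mass markers summed to 187 to 412 CPM in XIST-KO, 154 to 186 in WT+Kdm4A, 1174 to 2912 in WT and 92.9 to 113 in IVF, with SOX2 and NANOG at 0 in all 3 cloned groups. The ranges did not overlap between WT and the other groups. Trophectoderm markers summed to 81040 to 84570 CPM in XIST-KO, 47420 to 101200 in WT+Kdm4A, 61440 to 64840 in WT and 35510 to 83000 in IVF, so that WT+Kdm4A and IVF overlapped WT. Hypoblast markers summed to 293 to 482 CPM in XIST-KO, 164 to 273 in WT+Kdm4A, 84.6 to 116 in WT and 298 to 307 in IVF. Their part in the PSPH and ALDH1L2 differences was not tested.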

How the data were processed

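Per the submitters' processing notes, reads were quantified with RSEM 1.2.4 on Sscrofa11.1 (susScr11); aligner, read filters and strand setting: not given in the sources used here. Each deposited table lists 65927 transcript records with an expected count, a TPM and an FPKM value, per the file headers; FPKM was not used. Records were matched to symbols by RefSeq accession without version, which placed 25305 records (38.4%) in 14389 genes; with version 4758 (7.2%) matched. Expected counts and TPM were summed per symbol, so records that could not be matched add nothing to a gene, and matched records held 66.0% to 69.0% of counts in fetuses and 79.5% to 85.0% in embryos. Read depth per library sets the precision, which is lowest for day 35 abnormal replicate 2.

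The summed counts, rounded to whole numbers, went through filterByExpr and TMM scaling into edgeR 4.0.16 quasi-likelihood F-tests (R 4.3.3), with 1 fit per stage, 1 mean per group and Benjamini-Hochberg adjustment over all genes tested at 0.05. Fetal libraries had a biological coefficient of variation of 0.29, embryo libraries one of 0.893. SE is the log2 fold change over the root of F. Alternatives were RLE factors, no filter, at least 1 CPM in 2 libraries, DESeq2 1.42.0, limma 3.58.1 on log2(TPM + 1) with and without the filter and on log2(TPM + 0.1), replicate number as a block, records matched with version, compared groups only and each library left out. Taking day 35 abnormal replicate 2 or XIST-KO replicate 2 out of the shared fit was chosen after seeing the data. The scripts were tested on simulated data. Python 3.11.15, numpy 2.4.6, pandas 2.3.3, scipy 1.17.1 and matplotlib 3.10.9 were used.

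The members and lists were chosen with earlier results of these data known. Named genes are all members and counterparts, up to 3 genes per list in abnormal against normal at each day and WT against IVF with adjusted p under 0.05, average log2 CPM of at least 1 and no overlap of libraries, by size of change, and the 3 nearest profiles of each member (log2 CPM with a prior count of 2). ATF4 in all comparisons, and CTH, PGK1 and GARS in XIST-KO and WT+Kdm4A against WT, fall outside this rule and were chosen after their values were seen.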

Additional observations from a re-analysis of the deposited data

Results flagged for a closer look

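ALDH1L2 is the only member that passed a test of whether its abnormal-to-normal difference depended on fetal day, at 2.27 ± 0.47 on the log2 scale (SE; adjusted p = 0.0281, edgeR quasi-likelihood test). PSPH (1.95 ± 0.58) and PHGDH (1.57 ± 0.66) had the same sign and an unadjusted p under 0.05 by edgeR. The members were not compared with each other. For ALDH1L2 the abnormal-to-normal log2 difference was -0.54 at day 30, with 2 abnormal and 3 normal libraries, and 1.73 at day 35, with the same numbers. Both days lay clear of overlap, in opposite directions. Of all genes tested, 33.3% lay wholly below normal at day 30 and 17.1% wholly above it at day 35. The day 30 difference of ALDH1L2 did not itself pass (adjusted p = 0.3, edgeR). The day 35 abnormal pair includes the shallow library, and without it the difference between days was 2.61 (adjusted p = 0.00772). The call was lost on leaving out any 1 of 5 other libraries (adjusted p = 0.0506 to 0.101), with the compared groups only (2.28, adjusted p = 0.0543) and with replicate number as a block (2.25, adjusted p = 0.0733). Groups of 2 or 3 libraries are too small for a check of single outlying samples.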

How the results depend on the processing

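Over 16 comparisons the count of members called stayed within 1.5 times its value in 132 fits under other settings and moved in 37. With the compared groups only, it was 1 for abnormal against normal at day 35, 0 for the difference between days, 2 for abnormal against NF at day 30, 0 for day 35 against day 30 in abnormal clones and 2 for WT+Kdm4A against WT. RLE factors, limma at either pseudocount, limma without a filter and the block each gave 0 for normal against NF at day 30. Limma without a filter gave 1 for abnormal against normal over both days, and limma at either pseudocount gave 1 for XIST-KO against IVF. DESeq2 gave 2 for the difference between days, 2 for XIST-KO and for WT+Kdm4A against WT, and 1 each for abnormal against NF at day 35, WT against IVF, XIST-KO against IVF and WT+Kdm4A against IVF. It also called more of all genes in these comparisons, such as 937 of 9911 for the difference between days, beside 401 by edgeR. No filter on low counts gave 2 for XIST-KO and for WT+Kdm4A against WT, and 1 for WT, XIST-KO and WT+Kdm4A against IVF. At least 1 CPM in 2 libraries gave 2 for WT+Kdm4A against WT. With XIST-KO replicate 2 taken out of the shared fit, the count was 1 for WT against IVF and 2 for WT+Kdm4A against WT. Records matched with version, which leave out ALDH1L2, gave 0 for the difference between days, for normal and abnormal against NF at day 30 and for day 35 against day 30 in abnormal clones, and 1 for normal against NF at day 35. The cause of the other moves was not tested. The number of all genes called under most of these settings is not reported here, so a moved count cannot be read as particular to the members.

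Same-numbered libraries had deviations correlated at -0.07 to 0.15 over 31 pairs in fetuses, with 2 above 0.1, and at -0.31 to 0.09 over 12 pairs in embryos. In groups of 2 the deviations mirror each other, so such pairs repeat values, and the 2 above 0.1 are the same value. WT replicate 1 and XIST-KO replicate 2 stood at 0.31, the mirror of -0.31, and links between libraries under other numbers were not tested. With the number as a block, the count of members called was 0 for the difference between days (ALDH1L2 2.25, adjusted p = 0.0733, edgeR), 0 for normal against NF at day 30, 0 for day 35 against day 30 in abnormal clones (ALDH1L2 1.90, adjusted p = 0.0606), 2 for WT+Kdm4A against WT and 1 for XIST-KO against IVF.

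Leaving out each library in turn gave counts of 0 to 1 for abnormal against normal at day 30, 1 to 3 at day 35, 1 to 3 over both days and 0 to 3 for the difference between days. They were 0 to 2 for normal against NF at day 30, 2 at day 35, 0 to 1 for abnormal against NF at either day and 0 to 2 for day 35 against day 30 in abnormal clones. In embryos they were 0 for WT against IVF, 0 to 2 for XIST-KO and for WT+Kdm4A against WT, 0 to 1 for XIST-KO against IVF and 0 for WT+Kdm4A against IVF. Where this left 1 library in a group, that library was assumed to vary like the others. How many of all genes passed in these fits is not reported here, so the moves cannot be read as particular to the members.

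Signs turned for members that had not passed. On log2(TPM + 1), log2(TPM + 0.1) and log2(TPM + 1) without a filter, ALDH1L2 in abnormal against NF at day 35 was -0.20, -0.21 and -0.20, PHGDH in WT against IVF -0.53, -0.54 and -0.53, and PHGDH in XIST-KO against IVF -0.27, -0.28 and -0.27. PHGDH in WT against IVF was also -0.15 with at least 1 CPM in 2 libraries and -0.21 with version, and in XIST-KO against IVF -0.07 with version. Over libraries left out, PHGDH ran from -0.10 to 0.70 in normal against NF at day 30, -0.40 to 1.5 in day 35 against day 30 of abnormal clones, -0.41 to 0.72 in WT against IVF, -0.39 to 0.44 in XIST-KO against WT, -1.25 to 0.27 in WT+Kdm4A against WT, -0.35 to 0.83 in XIST-KO against IVF and -1.22 to 0.51 in WT+Kdm4A against IVF. PSPH ran from -0.47 to 0.30 in abnormal against NF at day 30 and -0.47 to 0.47 in WT against IVF, and ALDH1L2 from -0.35 to 0.52 in abnormal against NF at day 35 and -1.57 to 3.11 in XIST-KO against IVF.

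On log2(TPM + 1) the median over all genes of abnormal against normal was -0.27 at day 30 and -0.32 at day 35, beside -0.02 and 0.00 on counts, and PSPH, PHGDH and ALDH1L2 passed at day 35 on both. Depth limits day 35 abnormal replicate 2 most, where 3 counts amount to 8.09 CPM.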
